A study of Mus musculus with 12 samples.

Results

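The cytosolic ribosomal protein genes of cultured mouse myotubes were described across 12 RNA sequencing libraries. Members were the protein-coding genes whose GENCODE M21 symbol is Rpl or Rps followed by a number, with at most a letter and a further number behind it, together with Rplp0, Rplp1, Rplp2 and Rpsa, at a mean of 10 or more normalized counts. This rule gave 81 of the 20201 genes in the table, 49 of the large and 32 of the small ribosomal subunit, and it used no difference between libraries. Of 82 coding genes with such a symbol in the table, Rpl3l alone lay below the minimum. Myotubes are the multinucleated cells that form when myoblasts fuse, and the cells of every group, controls included, carried floxed alleles of Bmal1, which encodes the circadian transcription factor that works with CLOCK. The 6 libraries labelled knockout carry 1% oxygen in their labels and are Myotube4 to 6 and Myotube10 to 12. The 6 labelled wildtype carry 21% oxygen and are Myotube1 to 3 and Myotube7 to 9. Per the design text, cells received adenovirus with Cre recombinase, or an empty virus as the control, for 48 hours before 6 hours in the given oxygen. That text describes each virus at both oxygen levels, whereas in the labels genotype and oxygen go together and their effects cannot be told apart.

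Genes that low oxygen induces did not follow the oxygen label but the title numbers. Egln3 lay at 194 to 270.3 normalized counts in Myotube1 to 6 and at 2036 to 2258 in Myotube7 to 12, in both labels. Each comparison is therefore also given within Myotube1 to 6 (set 1) and Myotube7 to 12 (set 2), which are runs of title numbers and no labelled condition, and nothing is attributed to oxygen. Arntl, another symbol of Bmal1, had 41.7 to 48.6 normalized counts under the knockout label and 133 to 179 under the wildtype label. The libraries held 6376584 to 12463339 reads, of which 9 mostly non-coding genes took 50.04% to 65.92%, and wildtype replicate 2 (Myotube2) had no read for 29.6% of genes, against 13.0% to 21.9% in the other 11. Myotube markers were abundant in every library, and so was the fibroblast gene Col1a1. No label names an animal, a culture or a batch. The p-values below therefore rest on the variation among these 12 libraries alone, and that variation may be technical.

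Each cytosolic ribosome holds 1 copy of nearly every one of these proteins, apart from the paired acidic proteins of its stalk, so cells make them in step. Their mRNAs are short and abundant and begin with a run of pyrimidines, the terminal oligopyrimidine motif, through which the mTORC1 kinase pathway and LARP1 control their translation. In muscle, the number of ribosomes is one of the limits on growth of the fibre. A few members have a paralogue that may take their place in the ribosome, among them Rpl3l, the form of Rpl3 in adult striated muscle.

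Ribosomal protein mRNAs were higher in the libraries labelled knockout. Of the 81 genes, 76 rose, none fell and 5 did not pass the test (limma on log2(normalized count + 1), Benjamini-Hochberg adjusted p under 0.05 over 12553 genes). Of all genes tested, 19.2% passed in either direction and 10.2% as higher. The median log2 fold change was 0.50 over the members, a fold of 1.42, and -0.0015 over all genes tested. All 6 libraries labelled knockout lay above all 6 labelled wildtype for 73 members, against 7.07% of all genes tested. In bulk RNA, a change in the share of a cell type and a change of RNA per cell cannot be told apart.

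Summed over the members, the libraries labelled knockout were close to each other and those labelled wildtype were not. The sums were 192287, 190858 and 186935 normalized counts in Myotube4 to 6, against 131650, 105751 and 134758 in Myotube1 to 3. In set 2 they were 189300, 189062 and 190731 in Myotube10 to 12, against 150415, 148417 and 144704 in Myotube7 to 9. The lowest sum was that of wildtype replicate 2, which was the lowest library for 77 of the 81 members. Members made up 4.3% to 4.6% of the reads outside the 9 abundant genes in knockout libraries and 2.8% to 3.8% in wildtype libraries. As a share of all reads the labels overlapped, at 1.455% to 2.163% in knockout libraries and 1.071% to 1.913% in wildtype libraries. In set 2 that share was 1.455% to 1.865% in knockout libraries and 1.69% to 1.913% in wildtype libraries. The large and the small subunit moved alike: the mean log2 level of the large subunit genes minus that of the small lay between -0.16 and -0.12 in all 12 libraries.

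**Figure D1:**
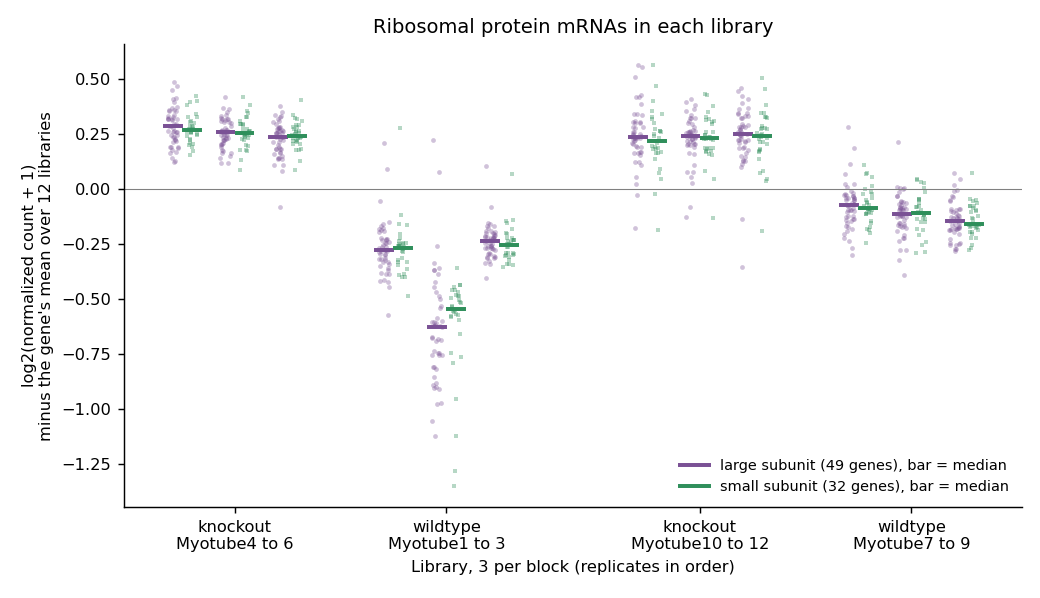
Level of each ribosomal protein gene in each library, as log2(normalized count + 1) minus the gene's mean over the 12 libraries, for the large subunit (purple circles) and the small subunit (green squares). Bars mark medians: over both subunits, knockout libraries lie between 0.23 and 0.27 and wildtype libraries between -0.60 and -0.078, the lowest being wildtype replicate 2.

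The subunits did not stand apart in the test either. Of the large subunit genes, 45 of 49 rose, with a median log2 fold change of 0.51, and of the small subunit genes 31 of 32, with a median of 0.47. The largest values in the small subunit were those of Rps26 (0.79), Rps28 (0.73) and Rps27 (0.73), and in the large subunit those of Rpl35 (0.78), Rpl21 (0.69) and Rpl14 (0.69). The 5 that did not pass were Rps27l, Rpl7l1, Rpl39l, Rpl22l1 and Rpl34. Of these, 4 are paralogues named after another member, and without those 4 the count was 76 of 77. Rpl34 (limma adjusted p = 0.0719) passed with the set as a term in the fit, and without wildtype replicate 2 or 4. Rpl3 and Rps20 had the smallest values among genes that rose, and Rpl3 at 0.26 turned to -0.0509 with quantile normalization.

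Rps26 (ENSMUSG00000025362, chromosome 10, 128624534 to 128626747, minus strand, mm10) encodes a protein beside the mRNA exit channel. It had 1680, 1716 and 1755 normalized counts in Myotube4 to 6, against 1069, 576 and 1143 in Myotube1 to 3. In set 2 it had 2073, 1888 and 1988 in Myotube10 to 12, against 1235, 1278 and 1330 in Myotube7 to 9. The groups did not overlap, wildtype replicate 2 was the lowest, and the log2 fold change was 0.79 ± 0.17 (SE; limma adjusted p = 0.0049). Rpl35 (ENSMUSG00000062997, chromosome 2, 39001580 to 39005624, minus strand, mm10) lies at the exit of the nascent peptide tunnel. It had 1415 to 1766 normalized counts in knockout libraries and 681 to 1123 in wildtype libraries, with means of 1569 ± 123 and 924 ± 158 (SD, n = 6 each). Its log2 fold change was 0.78 ± 0.11 (SE; limma adjusted p = 0.00022), again without overlap.

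Windows from 30 bases before to 20 bases after the annotated start are shown for genes with the largest values, because the pyrimidine run lies at the start of the mRNA. They are RefSeq sequences of GRCm38.p6, the build of mm10, which held a promoter for 61 of the 81 members. Capitals mark the longest run of C and T near the start, and Rps28 has none of 5 or more bases there.
Rps26 (chr10:128626487-128626536, minus strand): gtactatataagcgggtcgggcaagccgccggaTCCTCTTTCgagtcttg
Rpl35 (chr2:39005112-39005161, minus strand): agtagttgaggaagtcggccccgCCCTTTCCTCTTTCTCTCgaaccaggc
Rpl14 (chr9:120571487-120571536, plus strand): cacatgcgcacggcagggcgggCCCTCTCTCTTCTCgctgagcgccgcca
Rps28 (chr17:33824543-33824592, minus strand): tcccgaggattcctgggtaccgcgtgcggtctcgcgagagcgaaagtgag

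A run of 7 or more C or T that reached into the window from 10 bases before to 20 bases after the start was found in 36 of the 61 members (59.0%), against 27.7% of the 9507 tested genes with a promoter. A start on C with 4 more C or T behind it, the strict form of the oligopyrimidine motif, was found in 13 (21.3%), against 3.0%. A gene with several annotated starts was counted if any of its windows held the match, and an annotated start need not be the one used in these cells. CCGGAAG, the core of ETS factor motifs, was found on either strand of the 300-base promoters of 26 members (42.6%), against 20.5% of tested genes. AAGATGGC, the core of the YY1 motif, was found on either strand in 6 (9.84%), against 5.40%.

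CACGTG, the E-box that BMAL1 and CLOCK bind and that MYC also binds, reads the same on both strands. It was found in 6 of the 61 promoters (9.84%), against 11.9% of tested genes. Windows of 40 bases around it are shown for 4 of the 6, because Bmal1 is the gene targeted under the knockout label. The others are Rpl19 and Rps19. Capitals mark the E-box.
Rpl13a (chr7:45128923-45128962, minus strand): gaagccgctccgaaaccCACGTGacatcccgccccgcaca
Rpl14 (chr9:120571332-120571371, plus strand): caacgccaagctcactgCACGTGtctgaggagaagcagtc
Rpl23 (chr11:97782420-97782459, minus strand): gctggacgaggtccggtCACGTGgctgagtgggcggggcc
Rpl34 (chr3:130730531-130730570, minus strand): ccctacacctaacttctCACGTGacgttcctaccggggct
The 6 genes with the E-box had a median log2 fold change of 0.54 (0.31 to 0.69), and the 55 without it had 0.50 (0.04 to 0.79). A match to these letters is a description and shows no binding.

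Genes of each listed part of the ribosome rose. All 4 proteins of the stalk that recruits the translation factors rose, namely Rplp0, Rplp1, Rplp2 and Rpl12, with log2 fold changes of 0.43 to 0.55. Rplp0, the base of the stalk, had 7402, 7204 and 6886 normalized counts in Myotube4 to 6, against 5264, 4058 and 5393 in Myotube1 to 3, and 7202, 7268 and 7588 in Myotube10 to 12, against 5843, 6286 and 5730 in Myotube7 to 9. The groups did not overlap. Rpl5 and Rpl11, which bind the 5S ribosomal RNA and hold back the p53 ligase MDM2 when free, rose by 0.39 and 0.57. All 8 genes listed around the peptide exit tunnel rose, by 0.37 for Rpl39 to 0.78 for Rpl35. The call of Rpl39 (limma adjusted p = 0.0460) was lost in 13 alternatives, among them 8 that leave out 1 library. Of 6 further large subunit genes listed, all rose, the most abundant being Rpl10, which joins late in assembly, by 0.39 ± 0.07 (SE; limma adjusted p = 0.0009).

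In the small subunit, all 5 genes listed at the mRNA entry and the decoding site rose, by 0.45 for Rps2 to 0.60 for Rps15. Rps6, the substrate of the S6 kinases, rose by 0.41, Rpsa, which also gives rise to a laminin receptor, by 0.44, and Rps27a, made as a fusion with ubiquitin, by 0.37. Mutations of some members cause Diamond-Blackfan anaemia in humans. All 8 small subunit genes of that list rose, by 0.44 to 0.79, and so did all 4 large subunit genes, by 0.39 to 0.54. Of these, Rps19 lost its call in 10 alternatives, among them 6 that leave out 1 library. Per kilobase of transcript, Rplp1 (6946 normalized counts per kilobase over all libraries), Rps2 (6578) and Rpl41 (6191) were the most abundant members. Rpl39l (25), Rpl7l1 (124) and Rps15a (302) were the lowest, although the annotated transcript of 5130 bases used for Rps15a lowers its value.

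The difference between the labels was present in both sets. In set 1, 78 of the 81 rose and none fell, where 18.8% of all genes were called, 10.8% as higher and 7.97% as lower, with a median log2 fold change of 0.64. In set 2, 50 rose and none fell, where 16.5% of all genes were called, 8.84% as higher and 7.64% as lower, and the median was 0.34. All 50 were among the 78 of set 1. The count in set 2 was 72 without wildtype replicate 2, 33 without wildtype replicate 6 and 33 without knockout replicate 5. The share of all genes called moved in the same direction, to 24.6%, 11.3% and 11.9%. With quantile normalization 16 rose in set 2, with a median of 0.14, where 13.9% of all genes were called. With each library scaled by its total reads outside the 9 abundant genes, in place of the deposited scaling, 23 rose, with a median of 0.18. This setting, named below by the abundant genes left out, also changed the method of scaling. It moved the median of all genes by -0.16. In that setting 18.85% of all genes were called.

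In set 1 the 3 largest values of the small subunit were those of Rps27 (1.00), Rps26 (0.95) and Rps28 (0.92), and of the large subunit those of Rpl36 (0.96), Rpl35 (0.88) and Rpl41 (0.81). In set 2 the 3 largest of the small subunit were those of Rps26 (0.63), Rps28 (0.55) and Rps15 (0.53), and of the large subunit those of Rpl35 (0.68), Rpl27a (0.67) and Rpl21 (0.59). Rps26, Rps28 and Rpl35 were among the 3 largest of their subunit in both sets. For 78 of the 81 members the value was larger in set 1, the exceptions being Rpl27a, Rpl28 and Rpl7l1. The test of the difference between the sets called no member by limma, where all genes had 1 call (0.00797%). At an unadjusted p under 0.05 there were 39 of the 81 members and 1070 of the 12553 genes tested. edgeR called none, and DESeq2 called 2, Rps20 and Rps21, where it called 31 of all genes (0.247%). Rps21 had log2 fold changes of 0.75 in set 1 and 0.06 in set 2, and Rps20 of 0.55 and 0.06.

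**Figure D2:**
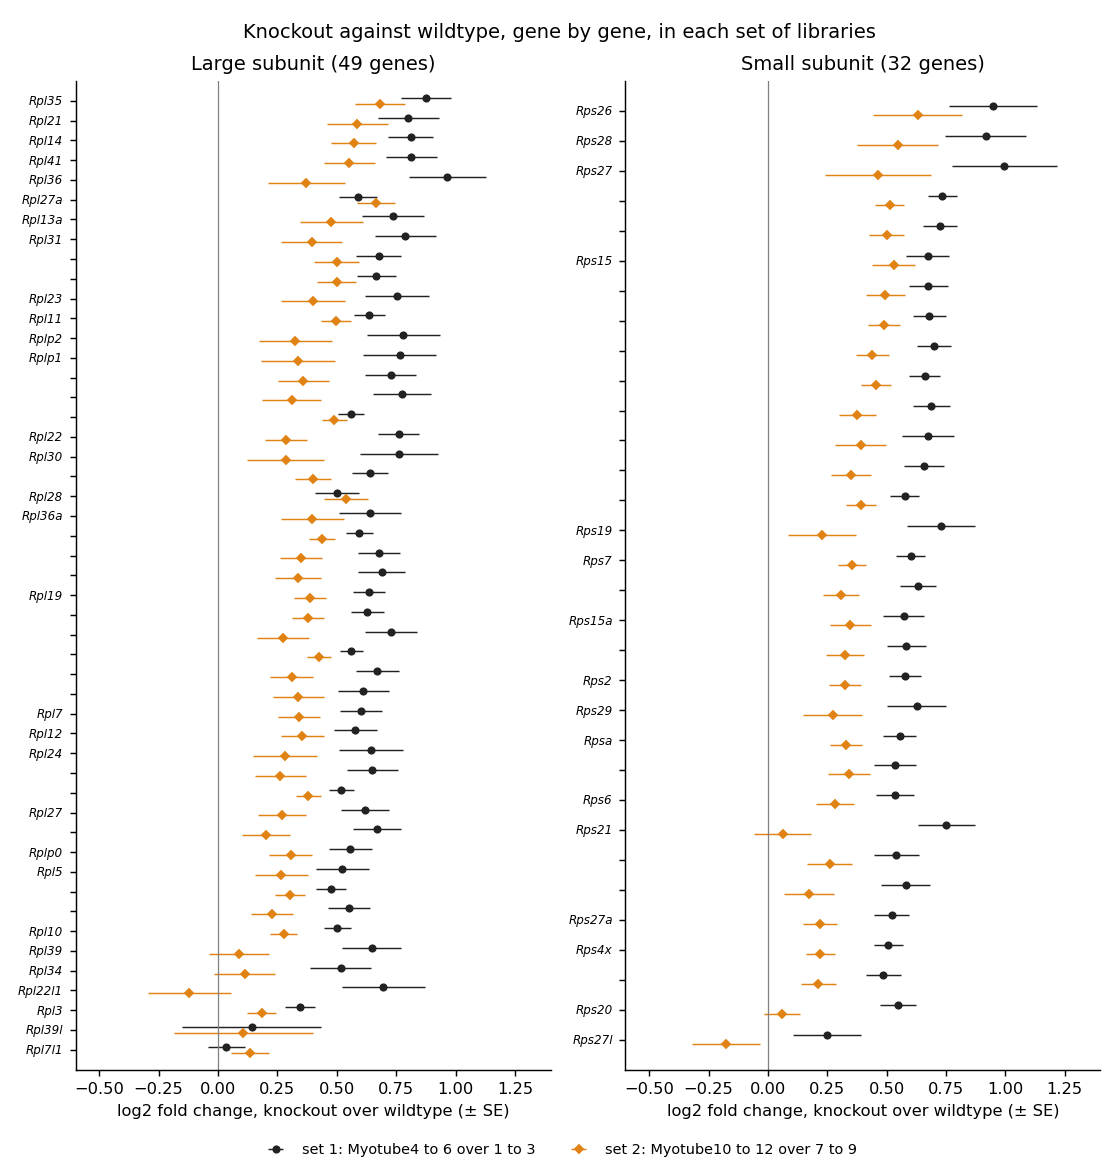
Log2 fold change of each ribosomal protein gene, knockout over wildtype, in set 1 (black circles) and set 2 (orange diamonds), with standard errors from the fit over all 12 libraries. Large subunit genes are on the left and small subunit genes on the right, ordered by the value over all libraries and with names only for genes named in the text, and 78 of the 81 lie further right in set 1.

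The sets could also be compared within a label. In the libraries labelled wildtype, 29 members were higher and 1 was lower in Myotube7 to 9 than in Myotube1 to 3, against 16.8% of all genes called and 9.79% as higher. The median log2 fold change was 0.26, and Rpl36 (0.53), Rps19 (0.52) and Rpl30 (0.51) had the largest values among those called. The 1 called lower was Rpl7l1 (-0.35 ± 0.08, SE; limma adjusted p = 0.0087). These calls depended on single libraries and on scaling. Of the 81 members, 56 were called without wildtype replicate 3 and 21 without wildtype replicate 2, where the median was 0.15. The share of all genes called was 17.1% without wildtype replicate 3 and 16.9% without wildtype replicate 2. Without wildtype replicates 4, 5 and 6 in turn, 7, 8 and 10 were called, and the share of all genes fell to 11.4%, 11.7% and 11.6%. With quantile normalization, or with the abundant genes left out, 1 was called, as lower, with medians of 0.10 and 0.16. Of all genes, 18.1% and 18.8% were called in these settings.

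In the libraries labelled knockout, 2 members were called, against 19.0% of all genes (11.2% as higher), and the median was -0.02. Rpl27a was higher in Myotube10 to 12 than in Myotube4 to 6 by 0.25 ± 0.08 on the log2 scale (SE; limma adjusted p = 0.0474), and Rpl7l1 differed by -0.25 ± 0.08 (SE; limma adjusted p = 0.0447). Both calls are near the threshold: leaving out 1 library at a time gave between 0 and 11 calls. The 11 came without wildtype replicate 2, where 27.1% of all genes were called. That library is not labelled knockout and enters only through the shared spread, and the median without it stayed at -0.02.

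Ribosomal protein mRNAs are short, and short genes as a whole differed between the labels in set 1. The members' annotated transcripts had a median of 774 bases, against 2882 for all genes tested. In set 1, the other genes of up to 500 bases had a median log2 fold change of 0.72, close to the 0.73 of the 15 members of that length, while those of over 500 and up to 1000 bases had 0.28, against 0.65 for 46 members. In set 2 the other genes of these lengths had medians of -0.02 and 0.07, against 0.34 for the members in each class. In wildtype replicate 2 the other genes of up to 1000 bases lay at a median of -0.48 relative to their means over the 12 libraries, against -0.07 and -0.02 in the other libraries of Myotube1 to 3. With the trend in length and GC content removed from each library, 57 members rose over all libraries, with a median of 0.23, where 18.5% of all genes were called. In set 1, 58 rose, with a median of 0.30 and 17.8% of all genes called. In set 2, 45 rose and Rps27l fell, with a median of 0.22 and 16.3% of all genes called.

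**Figure D3:**
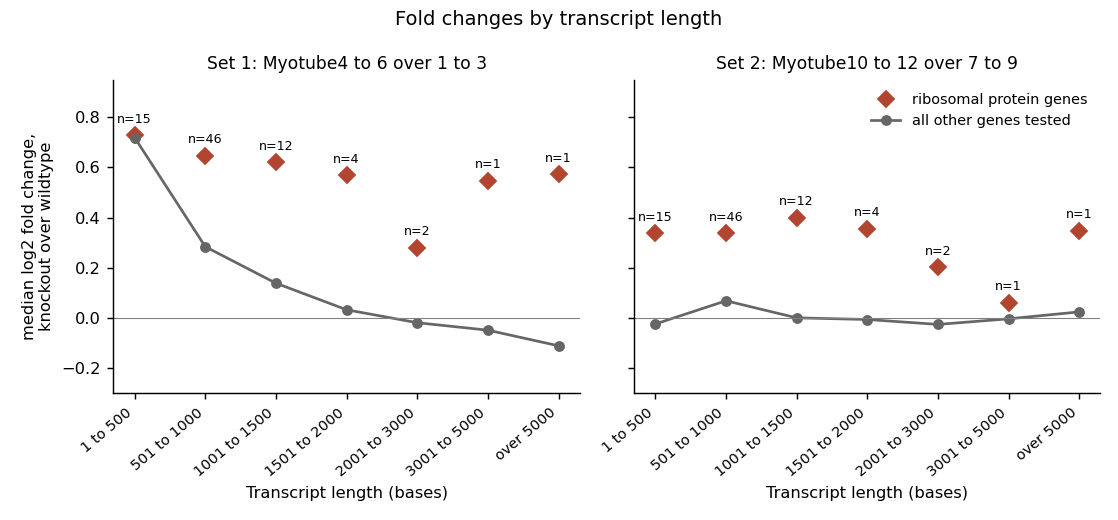
Median log2 fold change, knockout over wildtype, by length of the annotated transcript in bases, for ribosomal protein genes (red diamonds, with their number) and all other genes tested (grey circles and line), in set 1 (left) and set 2 (right). Other genes of up to 500 bases reach 0.72 in set 1 and -0.02 in set 2, whereas members of that length have 0.73 and 0.34.

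Wildtype replicate 2 has weight in these values. Without it, 77 members rose over all libraries, with a median log2 fold change of 0.43, and 78 in set 1, with a median of 0.53. Of all genes, 21.8% and 19.1% were then called. With the length and GC trend removed as well, 56 members rose, where 20.4% of all genes were called. With quantile normalization 41 rose, with a median of 0.27, and with the abundant genes left out of the scaling 61 rose, with a median of 0.34, or 0.50 relative to the -0.16 of all genes. The share of all genes called was 16.8% with quantile normalization and 22.4% with the abundant genes left out.

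Markers of some cell types also differed between the labels, where 10.2% of all genes tested were higher and 9.07% lower. The sum of 10 myotube markers was 29428 to 32812 normalized counts in knockout libraries and 17952 to 22465 in wildtype libraries, with 5 markers higher, among them Ckm and Mymk, and 3 lower, among them Myog. The sum of 4 endothelial markers was 1130 to 1403 in knockout libraries and 827 to 962 in wildtype libraries, with 2 of the 4 higher. With the abundant genes left out of the scaling, 5 myotube markers were higher and 5 lower, and 1 endothelial marker was higher. Of all 12544 genes, 617 were then higher and 2196 lower. With quantile normalization 5 myotube markers were higher and 4 lower, and 2 endothelial markers were higher. Of all 12553 genes, 1054 were then higher and 1056 lower. Neither the myotube nor the endothelial sums overlapped between the labels, whereas the fibroblast, macrophage and myoblast sums did. The sum of 5 fibroblast markers was 40963 to 67979 in knockout libraries and 46717 to 57320 in wildtype libraries, with 1 marker lower and none higher. Of 5 macrophage markers the sum was 50.7 to 87.7 in knockout libraries and 35.4 to 71.2 in wildtype libraries, with Ptprc at 1.95 or less in all. The 4 myoblast markers summed to 145 to 228 in knockout libraries and 226 to 298 in wildtype libraries, with 1 of 3 tested lower. The adipocyte marker Adipoq was at 0 in every knockout library. In wildtype libraries the adipocyte markers summed to at most 1.76, where 3 reads are worth 2.12 to 5.85. The part of these cells in the ribosomal protein result was not tested.

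Of 5 paralogues or copies set against their parents, 1 differed from its parent in the test of the ratio, Rps27l. RPS27L, which is induced by p53 in human cells, differs from RPS27 in few residues. Rps27 (ENSMUSG00000090733, chromosome 3, 90212522 to 90213651, minus strand, mm10) had 338, 345 and 364 normalized counts in Myotube4 to 6, against 208, 107 and 238 in Myotube1 to 3. In set 2 it had 329.5, 371 and 377 in Myotube10 to 12, against 285, 272 and 226 in Myotube7 to 9, so that the labels did not overlap. The paralogue did not follow it. Rps27l (ENSMUSG00000036781, chromosome 9, 66946086 to 66949516, plus strand) had 542, 537.5 and 498 in Myotube4 to 6, against 551, 328 and 476.5 in Myotube1 to 3, and 399.7, 416 and 399 in Myotube10 to 12, against 477, 464 and 431 in Myotube7 to 9. It lay within the range of the other label in set 1 and below it in set 2, and its log2 fold change was 0.04 ± 0.13 (SE; limma adjusted p = 0.878).

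Expressed as a share of Rps27 in the same library, Rps27l stood at 106% to 161% in knockout libraries and at 167% to 307% in wildtype libraries, without overlap. The log2 ratio differed by -0.69 between the labels, by -0.75 in set 1 and -0.64 in set 2. An exact permutation test, two-sided over the 924 ways to assign the labels, called this difference (p = 0.00216, the smallest they can give, and 0.0108 adjusted over 5 pairs). With the length and GC trend removed, the difference was -0.54 (exact permutation test, adjusted p = 0.0216). RSEM divides reads that fit both copies by estimate, so the levels of such pairs are uncertain.

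Windows from 30 bases before to 20 bases after the start are shown for this pair and for Rpl22 and its paralogue. The pyrimidine run is in capitals, because its place or its presence differs within each pair. In Rps27 and Rps27l the run has 9 bases and begins at -2 and -12 from the annotated start. That of Rps27l therefore ends before the annotated start and lies outside the annotated mRNA. Rpl22 has no such run of 5 or more bases near its start.
Rps27 (chr3:90213629-90213678, minus strand): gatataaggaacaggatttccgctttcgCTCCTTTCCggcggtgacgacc
Rps27l (chr9:66946056-66946105, plus strand): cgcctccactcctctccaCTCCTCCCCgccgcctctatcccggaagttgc
Rpl22 (chr4:152325696-152325745, plus strand): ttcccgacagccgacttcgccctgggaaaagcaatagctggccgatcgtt
Rpl22l1 (chr3:28805478-28805527, plus strand): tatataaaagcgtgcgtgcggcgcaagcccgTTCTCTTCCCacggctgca

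The other 4 pairs did not pass the adjusted test, and their ratios overlapped between the labels over all 12 libraries. The test does not take the sets into account. Rpl7l1 stood at 7.58% to 9.95% of Rpl7 in knockout libraries and at 9.12% to 16.1% in wildtype libraries, a log2 difference of -0.39 (exact permutation test, p = 0.026, adjusted p = 0.0649). Within each set its ratios did not overlap: they were 8.96% to 9.95% in Myotube4 to 6, against 12.6% to 16.1% in Myotube1 to 3, and 7.58% to 8.62% in Myotube10 to 12, against 9.12% to 9.53% in Myotube7 to 9. Between 3 and 3 libraries this is common. Of the levels of all 12553 genes tested, 2261 lay without overlap as higher and 2074 as lower in set 1. In set 2 these counts were 2636 and 2415. Leaving out wildtype replicate 4, 5 or 6 brought the adjusted p to 0.0271, 0.0379 or 0.0433. Rpl22 rose by 0.52, and Rpl22l1, which RPL22 represses in mouse cells, stood at 28.7% to 39.8% of it in knockout libraries and at 31.9% to 47.2% in wildtype libraries. The log2 ratio differed by -0.24 (exact permutation test, adjusted p = 0.106). In set 1 Rpl22l1 itself rose by 0.70 ± 0.17 (SE; limma adjusted p = 0.0153), and in set 2 its value was -0.12.

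Rpl39l, the paralogue that replaces Rpl39 in mouse male germ cells, was at 15.3 to 25.5 normalized counts in knockout libraries and at 14.9 to 23.2 in wildtype libraries, under 4% of Rpl39, and its ratio differed by -0.24 (exact permutation test, adjusted p = 0.329). Rps4l, which GENCODE lists as a transcribed processed pseudogene and which is no member, stood at 2.52% to 4.09% of Rps4x in knockout libraries and at 3.34% to 5.60% in wildtype libraries (log2 difference -0.37, exact permutation test, adjusted p = 0.0758). Rpl3l, the striated muscle form, had 0 to 7.80 normalized counts in knockout libraries and 0 to 1.87 in wildtype libraries, where 3 reads are worth 2.12 to 5.85, so no ratio was computed for it. Rpl3 itself averaged 3474 ± 124.5 in knockout libraries and 2895 ± 199.9 in wildtype libraries (SD, n = 6 each).

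**Figure D4:**
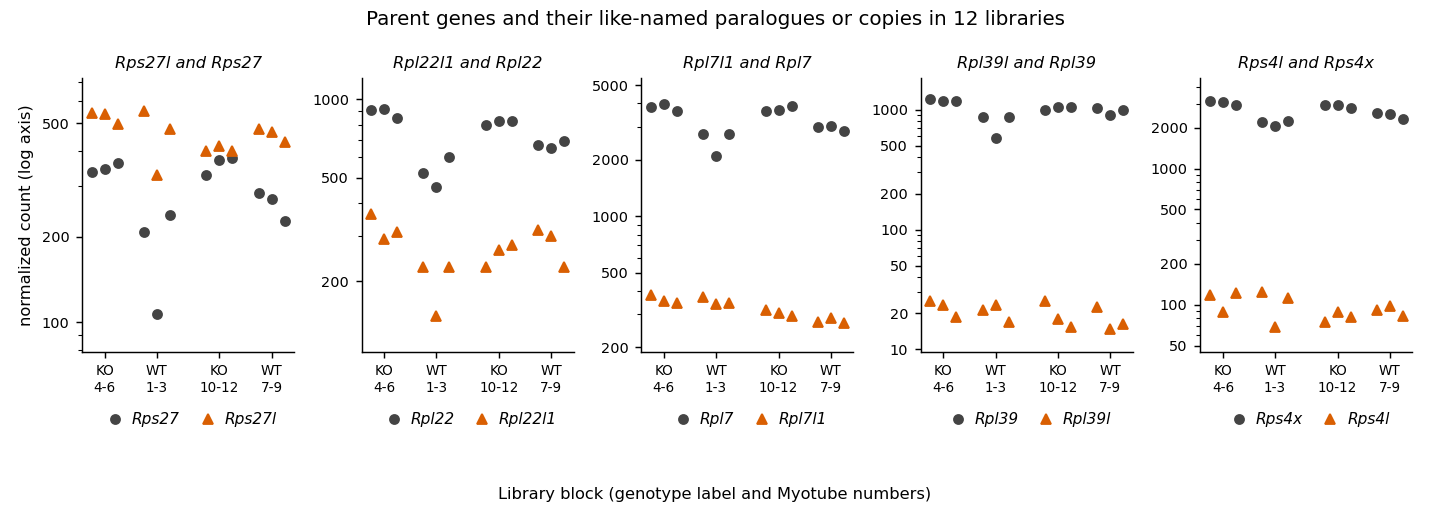
Normalized counts on log axes of 5 parent genes (grey circles) and their paralogues or copies (orange triangles) in the 3 libraries of each block, with the knockout (KO) block left of the wildtype (WT) block of the same set. Rps27 is higher in all knockout libraries while Rps27l is not, and Rpl39l and Rps4l lie far below their parents in all 12 libraries.

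Genes outside the symbol rule that also encode ribosomal proteins or bind the ribosome moved in the same direction. Of 5 on that list, 4 rose and none fell, with a median log2 fold change of 0.42. Under each of 3 other settings 1 was called higher, with medians of 0.27 (quantile normalization), 0.25 (abundant genes left out) and 0.07 (length and GC trend removed). Fau, which encodes RPS30 as a fusion with a ubiquitin-like protein, averaged 2105 ± 131 normalized counts in knockout libraries and 1591 ± 266 in wildtype libraries (SD, n = 6 each). Its log2 fold change was 0.42 ± 0.10 (SE; limma adjusted p = 0.0121), and that of Rack1, a scaffold on the small subunit, was 0.40 ± 0.08 (SE; limma adjusted p = 0.0045). The 99 pseudogenes named after ribosomal proteins summed to 2969 to 3334 normalized counts in knockout libraries and to 2238 to 2555 in wildtype libraries, a small part of the members' sum. Reads of such copies and of their parents may be divided wrongly.

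Other genes of the translation apparatus were taken from lists. Of 16 elongation factors and other oligopyrimidine mRNAs, 12 rose and none fell, with a median log2 fold change of 0.34. Tpt1, a classical oligopyrimidine mRNA, rose by 0.57, Eef1g by 0.52 and Eef1a1, the factor that brings aminoacyl-tRNA, by 0.49. Of 30 initiation factors, 11 rose and none fell, with a median of 0.14, the largest being Eif3i at 0.59. Both counts stand against 10.2% of all genes called higher, and both depended on scaling. With quantile normalization 4 genes of the elongation list were higher, with a median of 0.11, and with the abundant genes left out of the scaling 7 were higher and 1 lower, with a median of 0.17. The initiation list had 7 higher and 4 lower with quantile normalization, where 1054 of all 12553 genes were higher and 1056 lower. It had 6 higher and 4 lower with the abundant genes left out, where its median was -0.02, against -0.16 for all genes. In that setting 617 of all 12544 genes were higher and 2196 lower. With the length and GC trend removed, 10 genes of the elongation list and 9 of the initiation list were higher and none lower. Their medians were 0.35 and 0.16, and 1256 of all 12488 genes were higher.

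Genes that build ribosomes did not follow the proteins. Of 47 ribosome assembly factors, 2 rose, Nop10 by 0.68 and Bop1 by 0.53, and 1 fell, Znhit6 by 0.68, with a median of -0.03. Of 24 genes of RNA polymerases I and III, Polr1d alone rose, by 0.33. Of 32 tested genes of the mTORC1 pathway and the regulators of oligopyrimidine mRNAs, 3 rose, the largest being Tsc2 (0.78), which restrains mTORC1, and 2 fell, the larger being Sesn2 (-0.44), another inhibitor. Of 11 tested host genes of small nucleolar RNAs, whose transcripts also begin with pyrimidines, 4 fell, the largest fall being Snhg17 (-1.24), and none rose. Of all genes tested, 9.07% were lower. With the abundant genes left out of the scaling, the mTORC1 list had 1 higher and 6 lower, the polymerases 1 lower and none higher, and the host genes 6 lower. In that setting 2196 of all 12544 genes were lower and 617 higher, with a median of -0.16.

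Between the sets, the assembly factors were the list with the most lower genes. Of the 47 assembly factors, 20 were lower and none higher in Myotube7 to 9 than in Myotube1 to 3, and 24 were lower and none higher in Myotube10 to 12 than in Myotube4 to 6, where 6.96% and 7.89% of all genes were lower. The medians were -0.51 in both labels. Nolc1, a nucleolar chaperone of small nucleolar ribonucleoproteins, fell by 1.24 in the libraries labelled wildtype, and Rrs1, needed for the large subunit, fell by 1.49 in those labelled knockout. Of the 24 polymerase genes, 6 were lower in each label and none was higher. Of the 81 ribosomal protein genes, 1 was lower in each label, in both cases Rpl7l1.

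**Figure D5:**
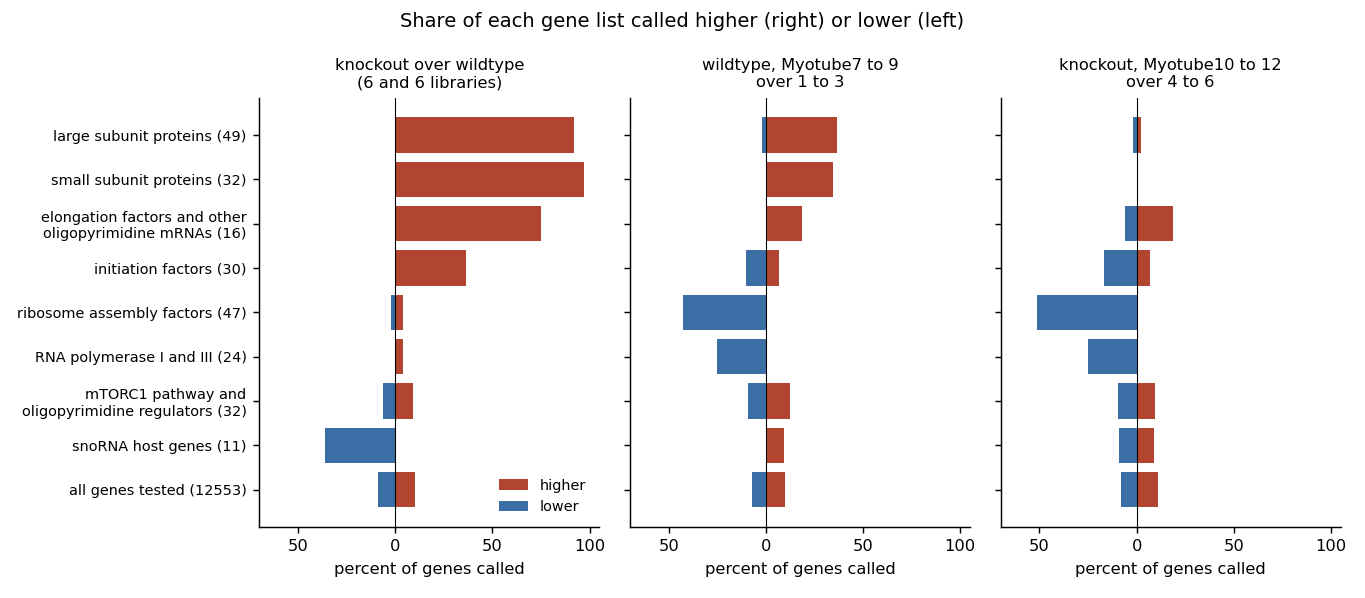
Percent of genes called higher (red, right of 0) or lower (blue, left of 0) in each list, with the number of genes tested in brackets, for knockout over wildtype (left), Myotube7 to 9 over 1 to 3 in wildtype (middle) and Myotube10 to 12 over 4 to 6 in knockout (right). Ribosomal protein genes stand out on the left, with 76 of 81 higher, and the 47 ribosome assembly factors in the other panels, with 20 and 24 lower.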

How the data were processed

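Total RNA was sequenced from 12 libraries of mouse myotubes, with a stranded kit per the labels' protocols. What the authors deposited is a signal per gene: normalized counts of 20201 genes. The submitters' processing notes list Trimmomatic 0.33, STAR 2.5.2, RSEM 1.3.3, DESeq2 and the build mm10. No source used here gives the annotation behind the counts. GENCODE M21 named 19970 IDs (98.9%), and lengths are those of 1 coding transcript per gene.

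All values (100%) were whole reads within 1e-06 reads after division by 1 factor per library. Two-sided tests used limma 3.58.1 (R 4.3.3), with its prior variance following the mean, on log2(normalized count + 1) of the 12553 genes that averaged at least 10, with Benjamini-Hochberg adjustment. This scale understates the change of low genes. The labels were compared in a fit of 6 against 6, and the other comparisons came from 1 fit of 4 blocks over all libraries. Paralogue ratios used an exact permutation test. edgeR 4.0.16 and DESeq2 1.42.0 on recovered reads were alternatives, as were pseudocounts of 0.5 and 10, a minimum of 50 or none, quantile normalization, library weights, the set as a term, leaving out the 9 abundant genes, removing a length and GC trend, and leaving out each library. The 9 were the genes not annotated as protein-coding that reached 0.5% of the reads of any library, together with Lars2. Leaving them out meant dividing recovered reads by each library's total outside the 9, in place of the deposited scaling. The effect of the 9 genes and that of the change to total-count scaling were not separated. The trend together with the loss of wildtype replicate 2, and the trend in the ratios, were added after seeing the data. The fits were tested on simulated data. A floor of 3 reads was 2.12 to 5.85 normalized counts, covering counting error only.

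The members, the lists and the tests were chosen with earlier results of these data known. Genes were named by role list, paralogue pair, the 3 largest and smallest values per subunit and comparison, and the largest called change per list, and a few genes that these rules name are not reported here.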

Additional observations from a re-analysis of the deposited data

Results flagged for a closer look

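Each member was checked in each labelled group of 6 libraries for a library that stood apart, by its gap to the nearest library as a share of the group's range, against a critical value of 0.625. Of 162 such groups, 20 passed, where chance gives about 1 in 20.

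In 17 of the 20, wildtype replicate 2 (Myotube2) was the lowest of the wildtype libraries, and values are given for 15 of these. The ratio was 0.735 for Rpl23, 0.715 for Rpl28, 0.702 for Rpl24, 0.689 for Rpl5, 0.688 for Rpl7, 0.679 for Rps28 and 0.677 for Rplp1. It was 0.653 for Rps26 and for Rpl31, 0.645 for Rplp2, 0.64 for Rps29, 0.639 for Rpl39, 0.636 for Rpl36a, 0.635 for Rpl27 and 0.634 for Rpl13a. Rpl23, for example, had 1211 normalized counts there and 1877 to 2118 in the other wildtype libraries.

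In the knockout libraries, replicate 5 was lowest for Rps7 (2182 normalized counts, ratio 0.731), replicate 1 was highest for Rpl36 (947, ratio 0.704) and replicate 2 was highest for Rpl19 (4330, ratio 0.629).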

How the results depend on the processing

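Pseudocounts of 0.5 and 10, a minimum of 50, library weights, edgeR and DESeq2 left the count of members called between the labels at 76, no filter gave 74, and the set as a term 77. Over these settings the share of all genes called ran from 11.3% with no filter to 30.15% with the set as a term. Quantile normalization gave 41 between the labels, 16 in set 2, 1 between the sets in wildtype and 4 between the sets in knockout. Of all genes, 16.8%, 13.9%, 18.1% and 18.7% were called in these comparisons. Leaving out the abundant genes gave 23, 1 and 4 in set 2 and between the sets in wildtype and in knockout, where 18.85%, 18.8% and 21.2% of all genes were called. DESeq2 gave 48 between the wildtype sets and 2 for the difference between sets, where 19.2% and 0.247% of all genes were called. Between the knockout sets no filter gave 0, edgeR 1, the length and GC trend removed 5 and library weights 8. The shares of all genes called were 10.8%, 18.8%, 19.4% and 25.8%. With that trend removed and wildtype replicate 2 left out, 15 were called between the wildtype sets and 13 between the knockout sets, against 17.1% and 26.8% of all genes. Leaving out each library gave 71 to 77 between the labels, 76 to 79 in set 1, 33 to 72 in set 2, 7 to 56 between the wildtype sets, 0 to 11 between the knockout sets, and 0 for the difference between sets. The share of all genes called moved as well, over 16.2% to 21.8% between the labels, 12.5% to 19.1% in set 1 and 9.48% to 24.55% in set 2. Between the wildtype sets it was 11.4% to 17.1%, and between the knockout sets 14.2% to 27.1%. Leaving out a library moved the Rps27l ratio between -0.76 and -0.59, with the adjusted p at 0.0108 to 0.0325, and the Rpl7l1 ratio between -0.45 and -0.29. Single members changed sign under some settings: Rps27l to -0.039 (quantile), -0.13 (abundant genes out), -0.22 (trend removed), -0.23 (trend removed without wildtype replicate 2), -0.0531 (without wildtype replicate 2), and -0.0095 and -0.0069 (without knockout replicates 1 and 2), the highest without any library being 0.096; Rpl34 to -0.042 and -0.066 (trend removed, and also without wildtype replicate 2); Rpl3 to -0.0509 (quantile); Rpl39l to -0.032 and Rpl7l1 to -0.079 (abundant genes out); and Rps21 to -0.0088 (trend removed without wildtype replicate 2). The cause was not tested. No paired analysis was possible because the replicate numbers follow accession order and pair no libraries.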
